A study of Mus musculus with 2 samples.

Results

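Genes of cholesterol and fatty acid metabolism were followed in Treg cells, the suppressive branch of CD4 T cells. A fixed list named 39 genes, and their probe sets were found by gene symbol in the annotation of the array. The list comprises 11 enzymes of sterol synthesis, 5 regulators of that pathway, 3 genes of sterol export or storage, 10 of fatty acid synthesis, elongation and desaturation, 3 of fatty acid activation and binding, and 7 of fatty acid oxidation. Of these, 38 had at least 1 probe set, 87 probe sets in all, among 18193 genes measured by the array. No probe set of the table used here named Soat1, whose enzyme esterifies cholesterol for storage, so Soat1 was not analysed here.

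The cells, sorted as CD4+CD25hi, came from the spleens of mice aged 6 to 8 weeks. One group was wild type. The other was deficient in miR-125a (labelled miR-125a KO, here called knockout), and the wild-type animals were its littermates. No treatment was given apart from the bead enrichment and antibody staining used to sort the cells. RNA of several mice of a genotype was pooled in equal amounts, and each pool was read on 1 Affymetrix mouse genome array of short oligonucleotide probe sets, so there were 2 arrays and no replicate. The number of mice in a pool, the strain and the design of the deletion are not given in the sources used here. Every difference below therefore compares 1 pool with 1 pool, no test between genotypes was possible, and genes were counted by the size of the difference.

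Cholesterol is built from acetyl-CoA through mevalonate, isoprenoid and squalene intermediates. The pathway is controlled by the SREBP transcription factors, which are held in the endoplasmic reticulum by INSIG proteins when sterols are plentiful and escorted to the Golgi by SCAP when they are scarce. Fatty acids are made in the cytosol by ATP-citrate lyase, acetyl-CoA carboxylase and fatty acid synthase, and are burned in mitochondria after carnitine-dependent import. In T cells, lipid synthesis is known to accompany growth and division, and Treg cells are known to use fatty acid oxidation as a fuel. Cholesterol leaves cells through the transporters ABCA1 and ABCG1.

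The molecule that was removed is miR-125a, a microRNA. Its 5-prime strand is shown with those of miR-125b and miR-351, which carry the same seed, the bases 2 to 8 that pair with target transcripts and are in capitals. In all, 5 mature mouse microRNA names in the RefSeq table (GRCm38.p6) had this seed. The deletion itself was not followed on the arrays, since 0 probe sets named miR-125a. Probe sets without a gene name were not searched for it.
miR-125a-5p (chr17:17830817-17830840, plus strand): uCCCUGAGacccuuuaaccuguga
miR-125b-5p (chr9:41581940-41581961, plus strand): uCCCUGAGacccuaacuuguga
miR-351-5p (chrX:53053315-53053338, minus strand): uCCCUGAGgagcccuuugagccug

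Promoters are shown for Hmgcs1, Fasn and Abca1, the one of the 11 sterol synthesis enzymes with the most probe sets in 1 direction and the 2 genes that differed by more than 1.5-fold. Each is the 250 bases before the RefSeq start (GRCm38.p6), 5′ to 3′ on the gene's strand. Capitals mark matches, on either strand, to an SRE-like element (TCACNCCAC, a form of the sterol response element bound by SREBPs), the CCAAT box (CCAAT, bound by NF-Y) and the E-box (CACGTG).
Hmgcs1 (chr13:119690101-119690350, plus strand): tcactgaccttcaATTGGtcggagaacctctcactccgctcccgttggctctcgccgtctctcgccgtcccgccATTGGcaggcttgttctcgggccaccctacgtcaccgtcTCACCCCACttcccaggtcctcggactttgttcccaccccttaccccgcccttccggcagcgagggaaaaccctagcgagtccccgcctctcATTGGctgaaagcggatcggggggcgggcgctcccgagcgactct
Fasn (chr11:120824548-120824797, minus strand): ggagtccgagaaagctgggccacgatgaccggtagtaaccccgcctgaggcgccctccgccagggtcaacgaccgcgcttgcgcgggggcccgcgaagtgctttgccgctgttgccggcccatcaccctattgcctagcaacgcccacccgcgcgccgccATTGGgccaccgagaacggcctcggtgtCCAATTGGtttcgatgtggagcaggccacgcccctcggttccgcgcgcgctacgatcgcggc
Abca1 (chr4:53159896-53160145, minus strand): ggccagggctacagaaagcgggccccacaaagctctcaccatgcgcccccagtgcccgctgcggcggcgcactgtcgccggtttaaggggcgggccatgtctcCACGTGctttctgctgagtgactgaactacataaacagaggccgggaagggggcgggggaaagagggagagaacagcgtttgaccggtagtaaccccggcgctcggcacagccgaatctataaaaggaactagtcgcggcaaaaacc

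The Hmgcs1 promoter held 1 SRE-like match, beginning at position -137 from the start, and 3 CCAAT boxes. The Fasn promoter held 3 CCAAT matches, of which 2 overlap in CCAATTGG, and the Abca1 promoter held 1 E-box and none of the other 2 motifs. Promoters of 31 of the 39 genes were found, in 40 windows, since some genes have several starts. A CCAAT box stood in at least 1 window of 18 of the 31 genes, against 37.5% of all 27025 genes. By role the counts ran from 8 of 8 sterol synthesis genes, with 4 of 5 regulators, to 1 of 7 fatty acid oxidation genes. By window the counts were 19 of 40 in all, 8 of 11 for sterol synthesis and 1 of 7 for oxidation, against 33.8% of 32851. The SRE-like letters stood in 1 of the 40 windows and in 1.05% of all windows, and the E-box in 5 of the 40 and in 6.02% of all. The GC box (GGGCGG), bound by Sp1, stood in 26 of 40 windows against 32.7% of all. These matches describe sequence only, and their part in the values below was not tested.

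Signals are MAS5 signals on a linear scale, on which each array has a trimmed mean of 500.0. Where several probe sets name a gene, the value is that of the probe set whose mean signal is highest. The log2 ratio is that of the miR-125a-deficient over the wild-type signal after adding 16.3 to each, so a ratio above 0 means a higher signal without miR-125a, and the change of dim genes is understated. The comparison took genes whose mean signal reached 62.3, which kept 10590 genes and all 38 of the measured lipid genes. The ± value is the probe-set SD, the SD of the log2 ratio between probe sets of the same gene at that brightness. It ranged from 0.37 in the dimmest to 0.18 in the brightest of 10 groups of genes, and it covers neither variation between mice nor error shared by a gene's probe sets. Signals of different probe sets are not comparable with each other, so levels are compared only between the pools.

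The arrays had median signals of 63.8 and 62.2 in the wild-type and knockout pool, and the 3′ probe sets of Actb read 1.22 times its 5′ probe sets on both arrays, with 0.80 and 0.79 for Gapdh, a check of RNA integrity. All 8 T and Treg cell markers were above the minimum in both pools. Foxp3, the factor that defines Treg cells, was at 1631 in wild-type cells and 694 in knockout cells, while Il2ra, which encodes CD25, was at 15390 and 18551. Markers of CD8 T and NK cells were present, with 4 of 5 measured markers past the minimum and all 4 lower in knockout cells, with a median log2 ratio of -0.46. Of the macrophage and dendritic cell markers 4 of 10 were past the minimum, with a median of -0.70 that includes Itgax, which passed only through the wild-type pool, and of the B cell markers 2 of 6, with a median of -0.10. The T and Treg cell markers had a median of -0.05. None of 6 neutrophil, 3 erythroid and 3 adipocyte markers measured was past it. In pooled bulk RNA, fewer cells of a type and less RNA per cell cannot be told apart, and the part of these markers in the values below was not tested.

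Most lipid genes differed little between the pools. Of 38 genes, 1 was at least 2-fold higher in the knockout pool, against 1.08% of all genes compared, and 0 were at least 2-fold lower, against 1.2%. At 1.5-fold, 2 were higher, against 5.0% of all genes, and 0 were lower, against 5.79%. The 2 genes were Abca1 and Fasn. The other 36 lay within 1.5-fold, from -0.46 for Acsl4 to 0.52 for Cpt1a. The ratio of 13 of the 38 exceeded the probe-set SD, a share of 34.2% against 40.5% of all genes, with 11 of them upward and 2 downward, against 20.9% and 19.5% of all genes. The median ratio was 0.01, as it was over all genes. The lipid genes had a median mean signal of 2901 against 769 for all genes compared. Among 6834 genes whose mean signal reached 449, the shares past 2-fold were 0.512% upward and 0.688% downward. Past 1.5-fold they were 2.87% and 3.67%. With loess scaling the counts over all genes at 2-fold were 145 higher and 105 lower, in place of 114 and 127.

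**Figure D1:**
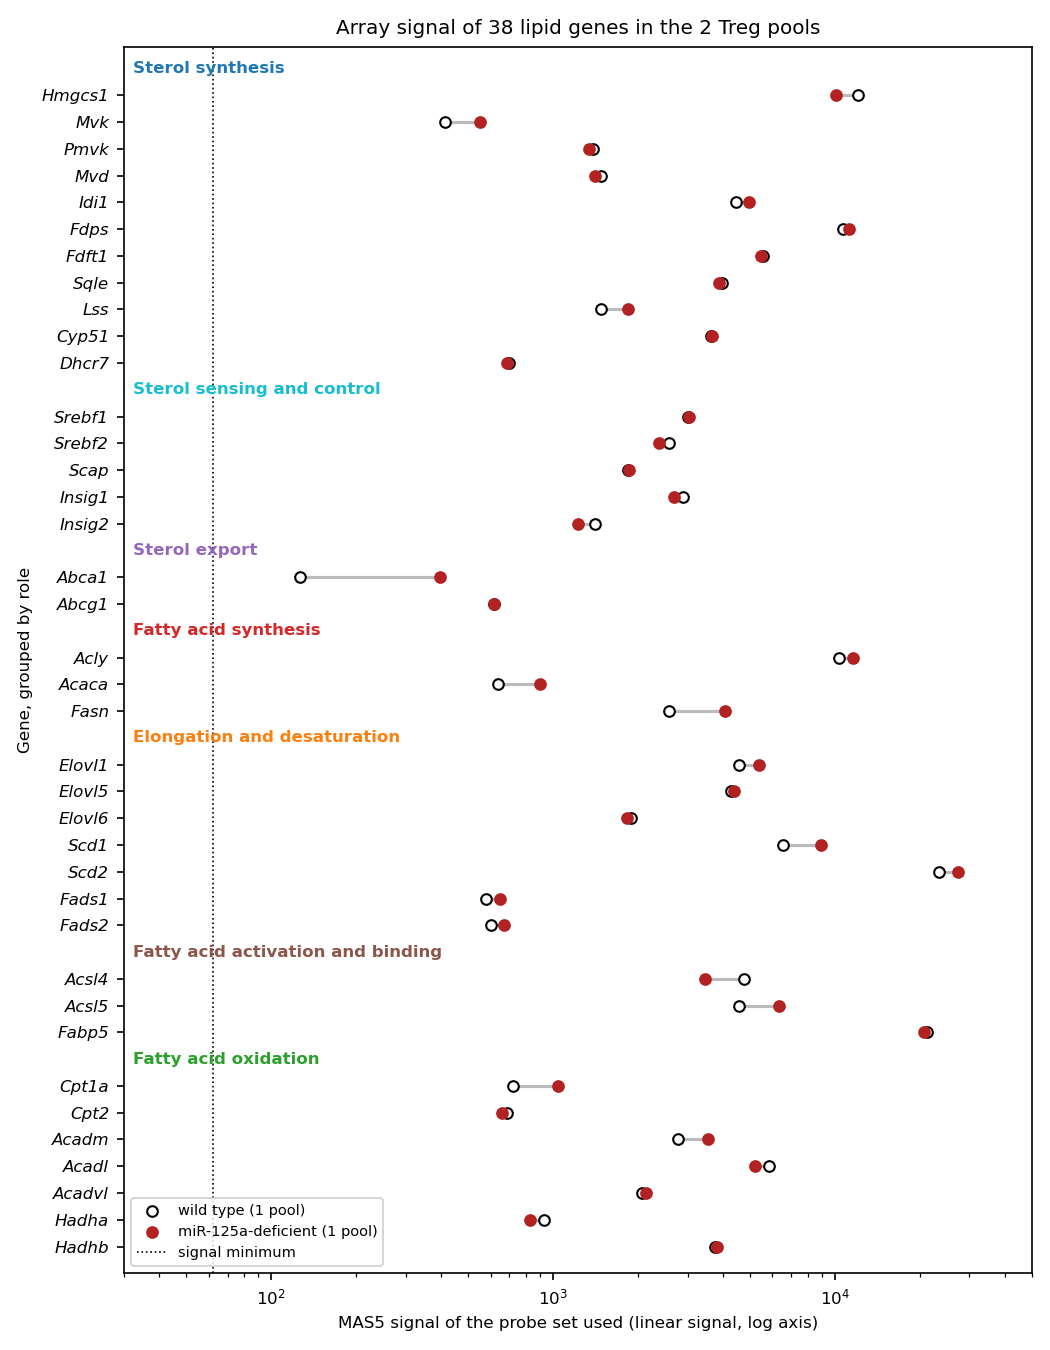
MAS5 signal (log axis) of the probe set used for each of 38 lipid genes in the wild-type pool (open circles) and the miR-125a-deficient pool (red circles), 1 array each, with genes grouped by role and the dotted line at the signal minimum. The circles are farthest apart for Abca1, at 127 and 397, and overlap for most sterol synthesis and control genes.

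Sterol synthesis showed no common direction. Of 11 enzymes, 5 had a ratio above 0 and 6 below, against 51.0% of all genes above 0, and the median was -0.03, which became 0.01 with the arrays scaled to equal medians. None reached 1.5-fold, against 5.0% of all genes upward and 5.79% downward. The ratio exceeded the probe-set SD for Hmgcs1, Mvk and Lss, or 27.3% of the 11, against 40.5% of all genes.

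Hmgcs1, whose enzyme makes HMG-CoA at the entry to the mevalonate pathway, had signals of 12087 in wild-type cells and 10065 in knockout cells, a log2 ratio of -0.26 ± 0.18. It was lower in all 5 of its probe sets, whose ratios ran from -0.45 to -0.18. The probe set with the ratio farthest from 0 stood at 392 and 282. Of the 11 sterol synthesis enzymes, Hmgcs1 had the most repeat readings in 1 direction, but it also had the most probe sets. Each reading differed by less than 1.5-fold, and all came from the same pair of pools.

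The mevalonate kinase gene Mvk went the other way, at 412 in wild-type cells and 549 in knockout cells, a log2 ratio of 0.40 ± 0.28. Its other probe set gave 0.07, at 238 and 251, so the difference was not shared by both readings. Lss, which encodes lanosterol synthase, the enzyme that closes the sterol ring, stood at 1476 and 1846, with a log2 ratio of 0.32 ± 0.21. A further probe set of Lss gave 0.24 and the dimmest -0.07.

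The remaining enzymes lay within the probe-set SD. Pmvk, the phosphomevalonate kinase gene, stood at 1382 in wild-type cells and 1346 in knockout cells. Mvd, whose enzyme makes isopentenyl pyrophosphate, stood at 1484 and 1410, with ratios of -0.07 and 0.18 from its 2 probe sets. Idi1, the isomerase of that compound, stood at 4467 and 4967, and its 2 probe sets agreed at 0.15 and 0.14. These 3 steps supply the isoprenoid units that the next enzymes join. Fdps, which makes farnesyl pyrophosphate, had signals of 10705 and 11205. Fdft1, squalene synthase, had 5560 and 5444. Sqle, squalene epoxidase, had 3986 and 3886. None of these 3 ratios was farther from 0 than 0.07, and that of Fdft1 was 0.01 rather than -0.03 with equal medians. Cyp51, which demethylates lanosterol, was at 3636 and 3650. Dhcr7, which completes cholesterol, was at 700 and 685. Both lay within 0.03 of 0 on the log2 scale, and their signs turned with the array scaling.

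The regulators of sterol synthesis were likewise close to equal, with a range from -0.20 to 0.01. Of these 5 genes, 0 were beyond the probe-set SD, against 40.5% of all genes. Srebf1, which encodes the SREBP most tied to fatty acid synthesis, stood at 3013 in wild-type cells and 3025 in knockout cells. Srebf2, which encodes the SREBP most tied to sterol synthesis, stood at 2585 and 2376, with ratios of -0.12 and 0.24 from its 2 probe sets. Scap, the escort, was at 1847 and 1858. The ratio of Srebf1 was 0.01 and changed sign with quantile and loess scaling, to -0.01. Insig1 had signals of 2879 and 2689, a log2 ratio of -0.10 ± 0.22. Insig2 had 1411 and 1222, a log2 ratio of -0.20 ± 0.24, and was lower in 3 of 3 probe sets, which ran from -0.66 to -0.20. The products of both INSIG genes retain SCAP when sterols are plentiful.

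Abca1 had the largest difference of the 38 genes. This transporter loads cholesterol and phospholipid onto apolipoprotein acceptors and is a known target of the oxysterol receptors LXR. Its signal was 127 in wild-type cells and 397 in knockout cells. With 16.3 added to each, this is 2.89-fold higher, a log2 ratio of 1.53 ± 0.31. Its other 2 probe sets were below the signal minimum and also read higher in the knockout pool, at 9.22 and 33.8 and at 5.18 and 17.2. The ratio therefore rests on 1 probe set.

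Abcg1, the partner transporter that passes cholesterol to high-density lipoprotein and a further LXR target, did not share this, with signals of 617 in wild-type cells and 615 in knockout cells and a log2 ratio of -0.01 ± 0.28. Its sign turned with the 3 other scalings, and a further probe set, too dim to be compared, was at 75.5 and 42.0. Macrophages, which are known for high Abca1, were followed through 10 markers. The 4 markers past the minimum, Cd68, Csf1r, Itgax and Fcer1g, were all lower in knockout cells. Their signals in wild-type and knockout cells were 166 and 87.4, 159 and 126, 79.7 and 47.6, and 226 and 103. Itgax reached the minimum only through the wild-type pool, so it could have counted only as lower. The other 6 markers were below the minimum in both pools. Of these, Lyz2 at 30.8 and 61.0, Itgam at 1.08 and 6.86, and Marco at 2.07 and 5.65 read higher in knockout cells. Adgre1 at 44.7 and 36.8, Mrc1 at 26.5 and 21.8, and Cd14 at 14.2 and 13.5 read lower. The part of macrophages in the Abca1 signal was not tested.

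**Figure D2:**
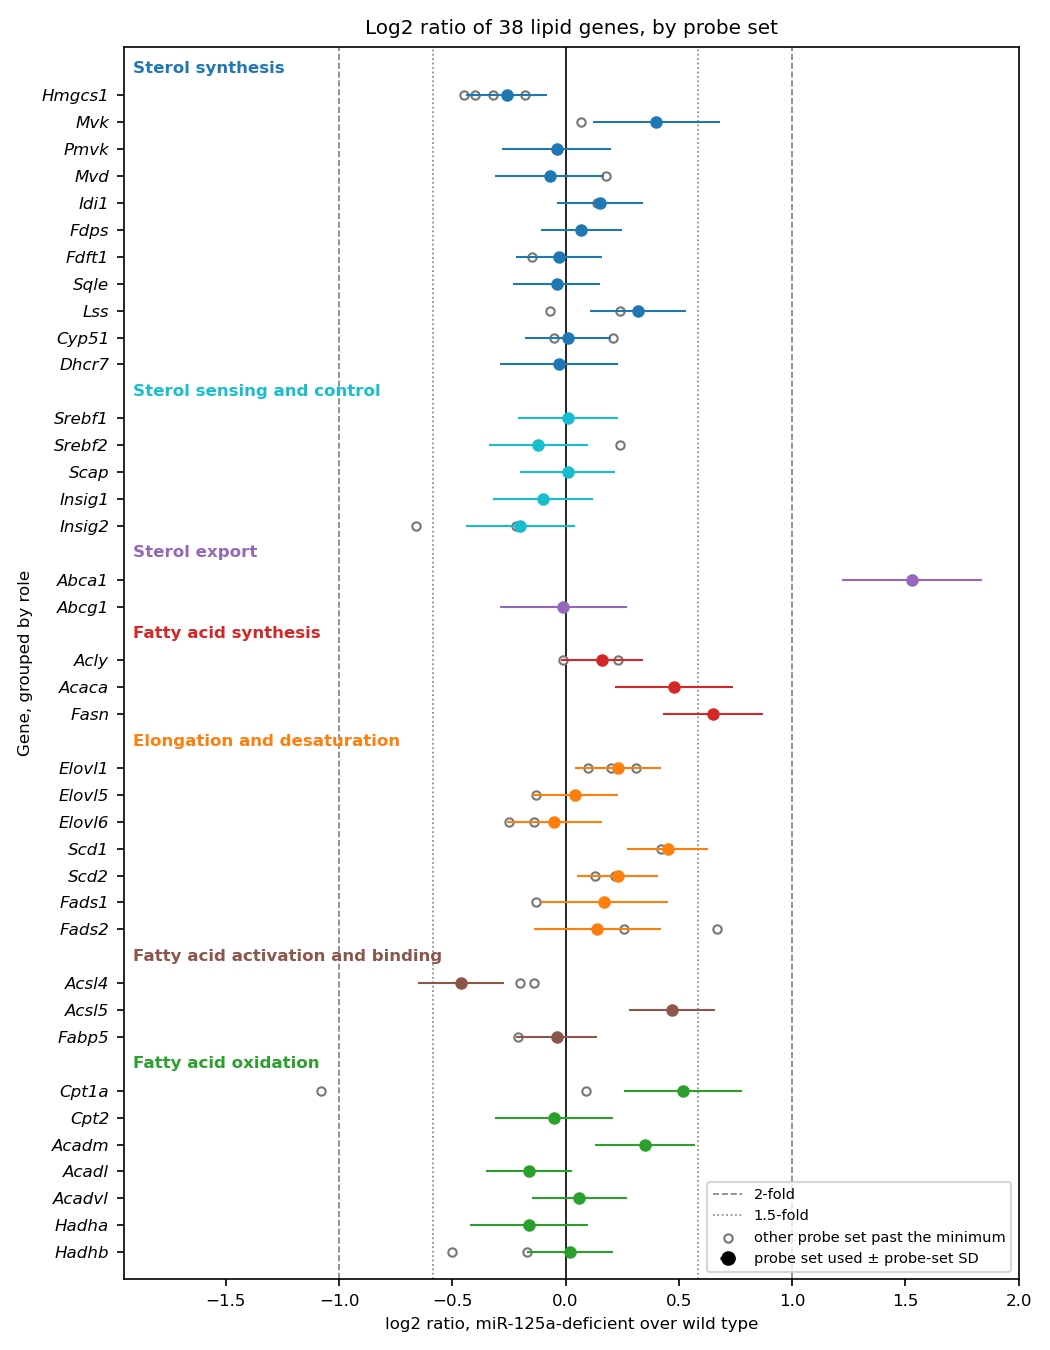
Log2 ratio (miR-125a-deficient over wild type) of each of 38 lipid genes: filled circles are the probe set used with the probe-set SD as the bar, open circles the gene's other probe sets past the minimum, and lines mark 0, 1.5-fold and 2-fold. Abca1 at 1.53 stands beyond 2-fold, Fasn at 0.65 beyond 1.5-fold, and the probe sets of Cpt1a lie on both sides of 0.

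Genes of fatty acid synthesis and modification were mostly higher in the knockout pool. Of 10 genes, 9 had a ratio above 0, against 51.0% of all genes, and 5 exceeded the probe-set SD, all upward, against 20.9% of all genes. The median was 0.20, against 0.01 over all genes, and stayed between 0.17 and 0.24 in the 9 alternative settings. Those settings that changed only the signal filter could not move this median. Of the 10, 1 reached 1.5-fold, upward, against 5.0% of all genes. These counts describe 1 pair of pools.

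Fasn, fatty acid synthase, the enzyme that builds palmitate, had signals of 2576 in wild-type cells and 4065 in knockout cells. With 16.3 added to each, this is 1.57-fold higher, a log2 ratio of 0.65 ± 0.22 from its 1 probe set. Acaca, the carboxylase that makes malonyl-CoA, stood at 636 and 896, a log2 ratio of 0.48 ± 0.26 from the 1 probe set past the minimum. The other probe set of Acaca, below the minimum, went the other way, at 55.1 and 42.3. Acly, which supplies cytosolic acetyl-CoA from citrate, stood at 10345 and 11543, a log2 ratio of 0.16 ± 0.18. All 3 core enzymes were higher in the knockout pool, Acly by less than its probe-set SD and with its 3 probe sets past the minimum between -0.01 and 0.23.

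Scd1, a desaturase that turns stearate into oleate, was at 6539 in wild-type cells and 8944 in knockout cells, a log2 ratio of 0.45 ± 0.18, and its other probe set gave 0.42. Scd2, the related desaturase, was at 23339 and 27314, a log2 ratio of 0.23 ± 0.18, with 3 of 3 probe sets above 0. Scd1 and Scd2 are close sequence relatives, so that their probe sets may share transcripts. Elovl1, an elongase of very long saturated fatty acids, was at 4571 and 5375, a log2 ratio of 0.23 ± 0.19, with 4 of 4 probe sets above 0.

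The other genes that lengthen or desaturate fatty acids lay within the probe-set SD. Elovl5, an elongase of polyunsaturated fatty acids, had signals of 4272 in wild-type cells and 4400 in knockout cells, with its other probe set at -0.13. Elovl6, which elongates palmitate to stearate, had 1891 and 1829 and was the 1 gene of the 10 with a ratio below 0, at -0.05, with 3 of 3 probe sets below 0. Fads1, a desaturase of polyunsaturated fatty acids, had 577 and 650, with ratios of 0.17 and -0.13 from its 2 probe sets. Fads2, the desaturase that acts before it, had 604 and 670, with ratios of 0.14 and 0.26 from 2 probe sets. The third gave 0.67, at 48.7 and 87.0, and reached the minimum only through the knockout pool.

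**Figure D3:**
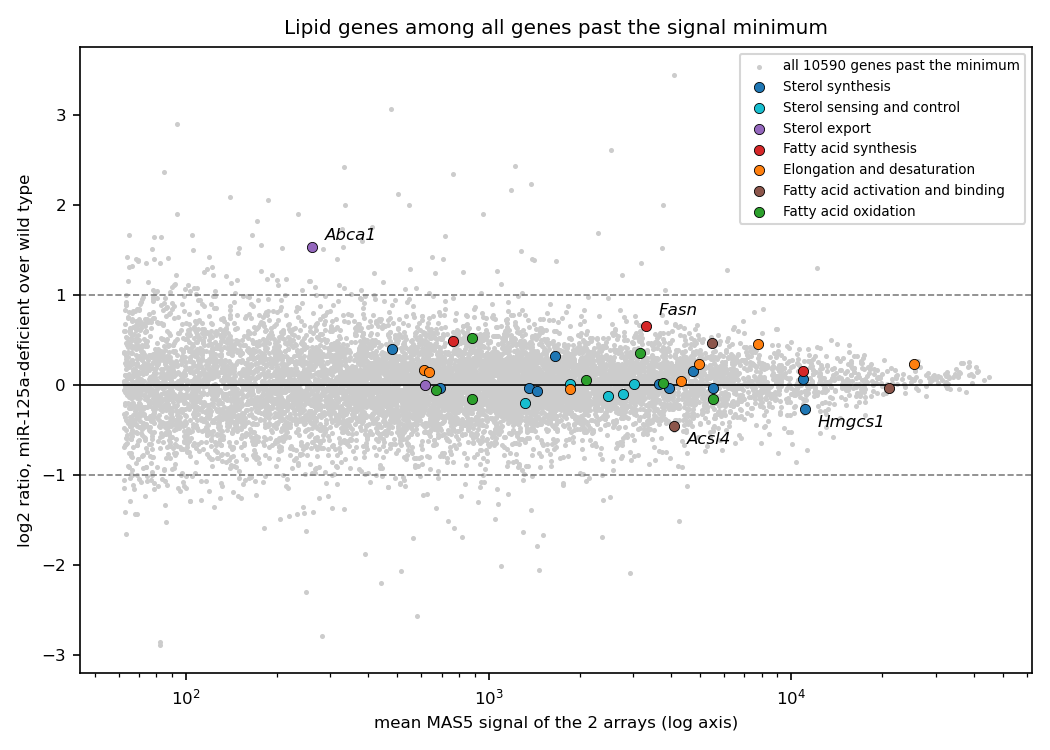
Log2 ratio against mean MAS5 signal of the 2 arrays (log axis) for all 10590 genes past the minimum (grey) and the 38 lipid genes, coloured by role, with dashed lines at 2-fold. Abca1 is the 1 lipid gene outside the dashed lines, and the genes of fatty acid synthesis lie above 0.

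Among genes that activate or bind fatty acids, the acyl-CoA synthetases Acsl4 and Acsl5 differed in opposite directions. Acsl4, which favours arachidonate, had a signal of 4755 in wild-type cells and 3451 in knockout cells, a log2 ratio of -0.46 ± 0.19. All 3 of its probe sets were below 0, and their mean was -0.27. Acsl5 had 4573 and 6341, a log2 ratio of 0.47 ± 0.19 from its 1 probe set. Fabp5, a fatty acid binding protein of lymphocytes and macrophages, was at 21239 and 20717, with ratios of -0.04 and -0.21. Acsl4 thus had the lowest ratio of all 38 genes and Acsl5 a ratio above the probe-set SD.

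Fatty acid oxidation genes lay near 0, with a median ratio of 0.02. Of 7 genes, 4 were above 0, or 57.1% against 51.0% of all genes, and 0 reached 1.5-fold, against 5.0% upward and 5.79% downward. Cpt1a, which attaches carnitine to long-chain fatty acids for import into mitochondria, had the highest ratio. Its signal was 723 in wild-type cells and 1043 in knockout cells, a log2 ratio of 0.52 ± 0.26. A second probe set of Cpt1a was at 505 and 230, a log2 ratio of -1.08, and the third, near the minimum, at 63.0 and 67.9. The mean over the 3 was -0.16, so the direction of Cpt1a depended on the probe set. Cpt2, which removes carnitine inside the mitochondrion, was at 684 and 660.

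The acyl-CoA dehydrogenases, which open each round of oxidation, differed among themselves. Acadm, for medium chains, had signals of 2775 in wild-type cells and 3540 in knockout cells, a log2 ratio of 0.35 ± 0.22 from its 1 probe set. Acadl, for long chains, had 5818 and 5213, a log2 ratio of -0.16 ± 0.19. Acadvl, for very long chains, had 2061 and 2143, a log2 ratio of 0.06 ± 0.21. Of these only Acadm exceeded the probe-set SD. Hadha and Hadhb encode the 2 subunits of the mitochondrial trifunctional protein, which carries out the later steps. Hadha was at 930 and 830, a log2 ratio of -0.16 ± 0.26. Hadhb was at 3749 and 3803, a log2 ratio of 0.02 ± 0.19. Its other probe sets gave -0.50, at 3946 and 2779, and -0.17, and the mean over all 3 was -0.22. With the mean over probe sets the median of the 7 oxidation genes was -0.16.

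Lists of other genes of the same pathways, 104 genes of which 91 had a probe set and 74 passed the minimum, were read in the same way. At 2-fold, 4 of the 74 were higher and 0 lower, against 1.08% and 1.2% of all genes compared. At 1.5-fold, 6 were higher and 4 lower, against 5.0% and 5.79%. The median ratio was -0.03. Of the 4 genes past 2-fold, Me1 and Elovl4 reached the minimum only through the knockout pool and could have counted only as higher, and of the 4 lower ones Nr1h3 only through the wild-type pool. Among 10 further genes of sterol synthesis 0 reached 1.5-fold in either direction, with a median of 0.06. Nsdhl, a sterol dehydrogenase, was at 2144 in wild-type cells and 2563 in knockout cells, Lbr, a sterol reductase of the nuclear envelope, at 5837 and 6878, and Tm7sf2, a further sterol reductase, at 631 and 717, with log2 ratios of 0.26, 0.24 and 0.18. Sc5d, Msmo1 and Hsd17b7, enzymes that convert lanosterol towards cholesterol, had the lowest ratios, at -0.28, -0.19 and -0.09. The other probe sets past the minimum of Sc5d and Msmo1 were also below 0, at -0.51 and -0.73, while 2 further probe sets of Hsd17b7 were above 0, at 0.04 and 0.21.

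Of 18 further genes of sterol sensing, uptake and transport, 1 was at least 2-fold higher, against 1.08% of all genes. At 1.5-fold, 2 were higher and 3 lower, against 5.0% and 5.79% of all genes. Of the 18, 7 lay above 0, or 38.9% against 51.0%. Erlin1, an endoplasmic reticulum protein that restrains SREBP activation, was at 387 in wild-type cells and 941 in knockout cells, a log2 ratio of 1.25 ± 0.26, from the 1 probe set past the minimum. Its other probe set, below the minimum, went the other way, at 24.1 and 3.53. Lrp8, a lipoprotein receptor, was at 650 and 1047, with ratios of 0.67 and 0.65 from the 2 probe sets past the minimum in both pools, and Nceh1, which hydrolyses cholesterol esters, was at 424 and 525. On the lower side, Vldlr, a related lipoprotein receptor, was at 5423 and 3414, a log2 ratio of -0.66 ± 0.19, with 6 of 6 probe sets below 0. These 2 receptors differed in opposite directions. Npc1, which carries cholesterol out of lysosomes, was at 1223 and 770, a log2 ratio of -0.66 ± 0.25. Nr1h3, which encodes LXR alpha, was near the minimum, at 101 and 51.4, a log2 ratio of -0.79 ± 0.37. It passed only through the wild-type pool and could have counted only as lower.

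Of 14 further genes of fatty acid synthesis past the minimum, 2 reached 2-fold upward, 3 reached 1.5-fold upward and 0 downward, against 1.08%, 5.0% and 5.79% of all genes. Of the 14, 8 lay above 0 and 6 below, a share of 57.1% against 51.0%, with a median of 0.11. Me1, malic enzyme, which supplies NADPH for fatty acid synthesis, was at 43.4 in wild-type cells and 237 in knockout cells, a log2 ratio of 2.09 ± 0.37, while its other probe set gave 0.56, at 50.0 and 81.6. Elovl4, an elongase of very long chains, was at 40.6 and 135, a log2 ratio of 1.41 ± 0.37, with its other probe set at 1.33. Both genes, in both probe sets, passed the minimum only through the knockout pool, so neither could have counted without being higher there. Mid1ip1, which activates acetyl-CoA carboxylase, was at 1124 and 1738, a log2 ratio of 0.62 ± 0.24. The lowest were Acss2, which makes acetyl-CoA from acetate, at 670 and 490, with Oxsm of mitochondrial fatty acid synthesis and the sugar-responsive factor Mlxip at log2 ratios of -0.30 and -0.13.

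Of 7 further genes of activation and uptake, 2 were above 0, or 28.6% against 51.0% of all genes, and 5 below. Acsl6, an acyl-CoA synthetase, was at 496 in wild-type cells and 252 in knockout cells, a log2 ratio of -0.93 ± 0.31. Cd36, a fatty acid transporter, had ratios of -0.39 and 0.47 from its 2 probe sets past the minimum, and Slc27a1, a fatty acid transport protein, was at -0.22. Acot7, a thioesterase, Dbi, an acyl-CoA binding protein, and Slc27a4, a fatty acid transport protein, had the highest ratios, at 0.27, 0.17 and -0.10.

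Among 25 further genes of fatty acid oxidation, 1 reached 1.5-fold, upward, against 5.0% of all genes. Of the 25, 12 lay above 0, or 48.0% against 51.0% of all genes, and the median was -0.01. Crat, which moves acetyl groups between carnitine and CoA, was at 108 in wild-type cells and 264 in knockout cells, a log2 ratio of 1.17 ± 0.37, but its other probe set past the minimum gave 0.08, at 159 and 170. Acad9, a dehydrogenase needed to assemble respiratory complex I, and Etfb, an electron carrier subunit, followed at 0.48 and 0.31. The other probe set of Acad9 past the minimum read 170 in both pools, and a further one, below the minimum, read 35.2 and 2.71. Slc25a20, the carnitine carrier of the inner membrane, was lowest, at 3288 and 2371, a log2 ratio of -0.47 ± 0.22, with both of its probe sets below 0. Ppard, a lipid-sensing nuclear receptor, and Acadsb, a dehydrogenase of branched chains, had -0.36 and -0.34. Hadh, which acts on medium and short chains, was at 5062 and 5756, a log2 ratio of 0.18 ± 0.19, with 0.20 from a second probe set. A further probe set gave 1.74, at 38.8 and 168, and reached the minimum only through the knockout pool.

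**Figure D4:**
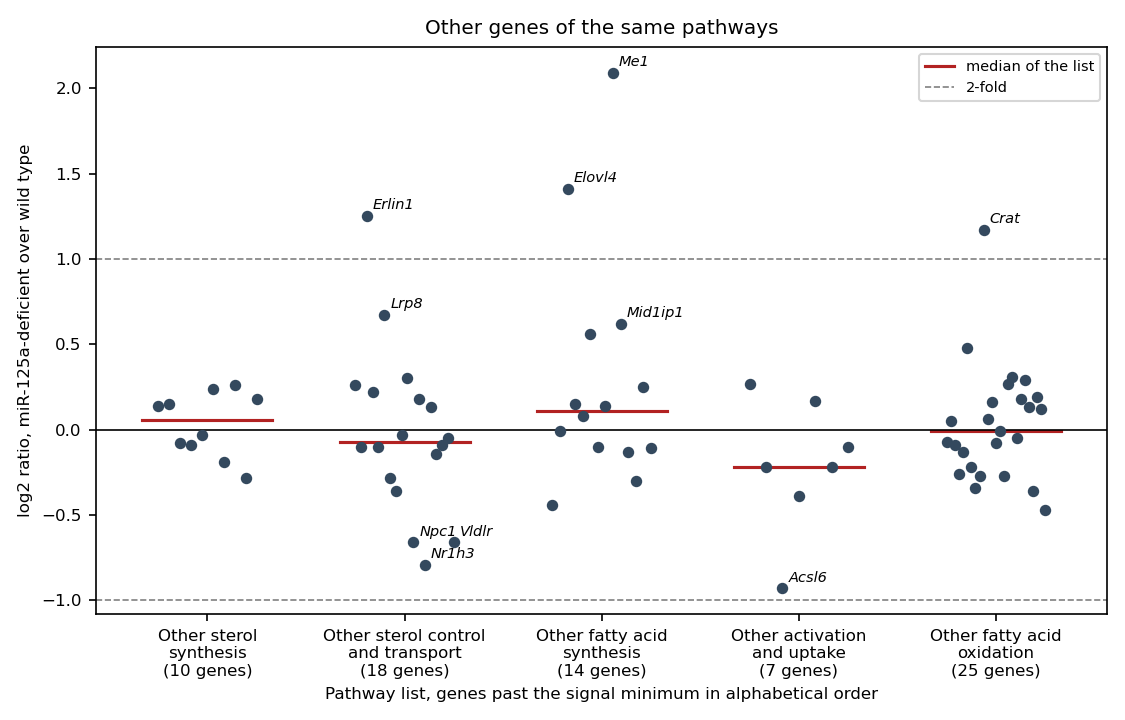
Log2 ratio (miR-125a-deficient over wild type) of the genes past the minimum in 5 lists of other genes of the same pathways: points are genes, red lines the list medians, dashed lines 2-fold, and genes at 1.5-fold or more are named. Erlin1, Me1, Elovl4 and Crat lie above 2-fold, no gene lies below, and the sterol synthesis list stays within 0.28 of 0.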

How the data were processed

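RNA of 2 pools of sorted Treg cells was measured on 1 Affymetrix array each. The authors deposited log2 values for 45101 probe sets. MAS5, with no version, is named in the submitters' processing notes, and the genome build was not given in the sources used here. On a linear scale both arrays had a mean of 500.0 once 2% of values were trimmed at each end. MAS5 subtracts mismatch signal, so dim values vary widely. Detection calls were not used here.

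Of the probe sets, 64 controls, 932 naming several genes and 9160 naming none were left out, which left 34945. Gene identifiers of 34741 were found in RefSeq (GRCm38.p6), and 0 symbols changed. The pseudocount of 16.3 is the 25th percentile of all signals and the minimum of 62.3 the median mean signal. The probe-set SD is the SD of the difference between the 2 brightest probe sets of 5037 genes, divided by the square root of 2. The counting code was checked on simulated data whose noise was set to the probe-set SD. That check cannot show how reliable the counts from these pools are. With 1 pool per genotype no p-value was computed, and the number of arrays limits the precision. Genes, lists and the rule for named genes (all members; the 3 highest and 3 lowest of each other pathway list; Hadh and 2 genes without a probe set; markers) were chosen with earlier results of these data known. Of the other pathway genes, 13 had no probe set of their own and were not analysed here. Alternatives were 3 array scalings (equal medians, quantile, loess, span 0.3), a pseudocount of 1 or 62.9, no filter, a filter at the 75th percentile (449), the mean over probe sets, and leaving out multi-transcript probe sets (those marked _s_, _x_ or _a_). Python 3.11.15, numpy 2.4.6, pandas 2.3.3, scipy 1.17.1, statsmodels 0.14.6 and matplotlib 3.10.9 were used.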

Additional observations from a re-analysis of the deposited data

How the results depend on the processing

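The 9 alternative settings gave 338 values of single lipid genes, of which 334 moved by less than the probe-set SD. The other 4 were Mvd, at 0.18 without multi-transcript probe sets, and Acsl4, Cpt1a and Hadhb, at -0.27, -0.16 and -0.22 with the mean over probe sets. Many of the 338 values could not move. The settings that changed only the signal filter leave every ratio as it was. The mean over probe sets leaves a gene with 1 probe set past the minimum as it was. The sign differed from that reported in 17 of the 338 values, in 10 genes. Abca1 and Fasn kept their direction in every setting that gave them a value, but each has 1 probe set past the minimum. The filters and the choice of probe sets therefore could not change it. With the filter at the 75th percentile, Abca1 is not among the genes compared, so 0 lipid genes reached 2-fold and 1 reached 1.5-fold upward. The median of the sterol synthesis genes was 0.05 with the mean over probe sets and 0.04 without multi-transcript probe sets, and that of the oxidation genes -0.16 with the mean over probe sets. No scaling moved the median of all genes beyond 0.05. No paired analysis was possible because each genotype has 1 pool. Signal near the minimum limits Abca1, Me1, Elovl4, Crat and Nr1h3, and 1 pool per genotype limits every value.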

Other observations

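Some genes of these pathways read differently in the pools only at signals below the minimum, where a ratio has little support, and were picked out with those values in view. Ppara, which encodes a nuclear receptor that drives fatty acid oxidation, was at 3.75 in wild-type cells and 38.0 in knockout cells, but its other 2 probe sets differed in direction, at 10.1 and 28.5 and at 25.3 and 10.5. Mlxipl, which encodes the sugar-responsive lipogenic factor ChREBP, was at 42.6 and 6.21, and Thrsp, a lipogenic gene, at 32.9 and 6.70 in the brightest of its 3 probe sets. Slc27a2, a fatty acid transport protein, was at 7.19 and 39.4. A second probe set of Scap was at 6.86 and 62.4, while the one used for the gene was at 1847 and 1858.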
